A study of Mus musculus with 2 samples.

Results

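Domains of H3K4me3 (trimethylated lysine on histone H3) at least 1200 bp wide at the starts of protein-coding genes were collected from lung group 2 innate lymphoid cells (ILC2s) of adult mice. Peaks of each library at most 1000 bp apart were joined, and a joined stretch on an autosome was kept as a broad start domain when it spanned 1200 bp or more and overlapped the 1000 bp on either side of the start of a protein-coding transcript in GENCODE vM21, genes with symbols starting with Gm left out. This gave 935 broad start domains of 9831 start domains in the library of offspring of control mothers and 226 of 8040 in the library of offspring of asthmatic mothers. They lay at 1132 and 285 genes, 1176 genes in all, of 19532 autosomal protein-coding genes. Of all 2218 and 1931 autosomal domains of this width, 42.2% (exact Clopper-Pearson 95% interval 40.1 to 44.2%) and 11.7% (10.3 to 13.2%) were at a coding start. The members were chosen by their measured width, so widths and counts of members are given as a description. Intervals cover counting error only.

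The mark H3K4me3 is placed by SET1 and MLL family methyltransferases at promoters, most of all at CpG islands, and sits on the nucleosomes that flank the nucleosome-depleted start of a gene. At most active genes it covers a few nucleosomes, whereas at some genes, often regulators of the identity or the response of a cell, it spreads over a wider stretch. ILC2s are tissue-resident lymphocytes without antigen receptors, which depend on the transcription factors GATA3 and RORα, sense the alarmins IL-33, IL-25 and TSLP, and release the type 2 cytokines IL-5 and IL-13.

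Mothers of the asthmatic group were sensitised by repeated intraperitoneal injection of 100 µg ovalbumin (OVA) in alum and then received 500 µg OVA intranasally at each of several administrations between days 4 and 17 of gestation. Control mothers received PBS with alum and intranasal PBS instead. The sires were untreated, and the offspring were 8 weeks old and are not labelled as treated themselves. The study's wild-type mice were C57BL/6J, but the strain of these offspring is not in their labels. About 3000 snap-frozen lung ILC2s per library were profiled by CATCH-seq. It is a ChIP-seq for few unfixed cells that digests chromatin with micrococcal nuclease and adds carrier DNA. There was 1 library per group, so no difference between the groups could be tested, and how many offspring were pooled, their sex and the read depth of each library are not given in the sources used here. The study's methods give a read total for the ChIP-seq as a whole and 1 pregnant dam per group for the experiment shown with these libraries. Group, dam, library and depth cannot be told apart.

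Widths differed over the whole lists and not at the broad domains alone. The control list held 42126 peaks of 190 bp or more, and the asthmatic list 51610 peaks of 156 bp or more. The median width of all start domains was 638 bp in the control list and 400 bp in the asthmatic list, and the widest spanned 3455 and 2240 bp. A broad start domain was found at 5.8% of all autosomal protein-coding genes in the control list, or 10.7% of the 10543 genes with any start domain there. The asthmatic shares were 1.46% of all genes and 3.26% of the 8753 genes with a start domain. Of 8647 genes with a start domain in both lists, 50.7% had a control domain at least 1.5 times as wide as the asthmatic one and 1.08% an asthmatic domain at least 1.5 times as wide as the control one. These shares are the background for every count of genes below.

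**Figure D1:**
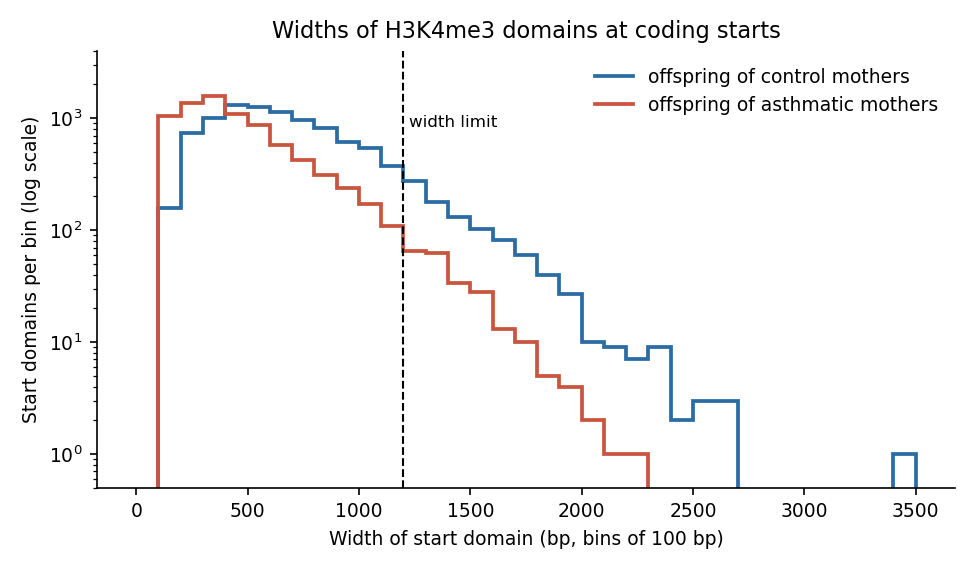
Width of each autosomal start domain (x axis, bp, in bins of 100 bp) against the number of domains per bin (y axis, log scale) for the 2 libraries, with a dashed line at the 1200 bp limit. The asthmatic curve lies above the control curve under 400 bp and below it at every bin from there up to 2300 bp, and 935 control and 226 asthmatic domains lie right of the line.

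The label of the cells was set beside the start domains of marker genes. Of 87 autosomal markers of T cells, B cells, NK cells, ILC3s, macrophages, neutrophils, epithelial cells, endothelial cells and fibroblasts, 7 had any start domain in the control list and 3 in the asthmatic list, where 10543 and 8753 of all 19532 genes had one. Only Ltb among them was broad, with 1826 and 1776 bp. It encodes lymphotoxin β, which was listed as an ILC3 marker and is also made by other lymphocytes. Some genes by which ILC2s are often defined, named after their values were seen, had no broad domain. The start domain of Gata3 was 351 bp wide in the control list, and none was listed in the asthmatic list. Rora had 886 and 783 bp, and Il1rl1, which encodes the IL-33 receptor chain ST2 on which ILC2s were gated in the study, 392 and 625 bp. No start domain was listed in either library for Il13, Icos or Klrg1.

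To show the DNA under these domains, 200 bases near the strongest summit of the control list are printed for 5 ILC2 regulators, Ptger4, Maf and Pparg, which were broad in both lists, Cxcr4, which lay just under the limit in the asthmatic list, and Socs1, the widest of all. Each stretch is the one nearest to the summit that holds no annotated untranslated bases, is read from GRCm38 on the strand of its gene (5′ to 3′), and has every CpG in capitals. The stretches are chr15:5242409-5242608 (minus strand, coding exon, 1579 to 1778 bp from the 5′ end of the gene), chr8:115706664-115706863 (minus strand, coding exon, 931 to 1130 bp), chr6:115361645-115361844 (plus strand, intron, 694 to 893 bp), chr1:128591487-128591686 (minus strand, intron, 607 to 806 bp) and chr16:10784588-10784787 (minus strand, coding exon, 749 to 948 bp).
Ptger4: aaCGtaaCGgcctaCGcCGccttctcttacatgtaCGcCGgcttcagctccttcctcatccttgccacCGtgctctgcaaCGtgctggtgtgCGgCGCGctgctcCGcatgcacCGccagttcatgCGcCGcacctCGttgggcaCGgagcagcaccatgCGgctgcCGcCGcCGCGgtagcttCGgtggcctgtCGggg
Maf: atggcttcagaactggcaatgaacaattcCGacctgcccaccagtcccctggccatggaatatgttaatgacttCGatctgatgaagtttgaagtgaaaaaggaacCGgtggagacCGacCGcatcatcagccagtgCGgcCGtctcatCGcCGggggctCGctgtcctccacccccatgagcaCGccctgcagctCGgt
Pparg: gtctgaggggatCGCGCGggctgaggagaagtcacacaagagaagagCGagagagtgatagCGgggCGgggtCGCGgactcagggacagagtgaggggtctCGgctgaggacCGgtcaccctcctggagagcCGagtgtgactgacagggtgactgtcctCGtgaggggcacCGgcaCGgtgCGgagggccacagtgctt
Cxcr4: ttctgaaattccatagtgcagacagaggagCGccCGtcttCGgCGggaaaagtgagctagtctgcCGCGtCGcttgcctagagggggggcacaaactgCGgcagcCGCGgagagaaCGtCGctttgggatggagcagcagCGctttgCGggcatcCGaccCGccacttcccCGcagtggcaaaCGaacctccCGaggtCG
Socs1: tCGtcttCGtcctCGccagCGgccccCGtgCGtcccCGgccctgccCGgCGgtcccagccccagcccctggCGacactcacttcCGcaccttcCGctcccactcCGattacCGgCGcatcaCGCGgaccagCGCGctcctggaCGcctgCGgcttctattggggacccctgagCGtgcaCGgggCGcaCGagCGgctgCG
The Socs1 stretch held 27 CpGs, Ptger4 24, Cxcr4 20, Pparg 15 and Maf 12, where the median over 200 bp at the strongest summit was 20 in all broad control domains and 19 in all control start domains. The stretches were placed by control summits, so all 5 lay wholly under a control peak and coverage in the lists is not compared. Asthmatic peaks covered 100% of the Cxcr4 stretch, 99.5% of Pparg, 29.0% of Maf, 22.5% of Socs1 and 18% of Ptger4.

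Of 130 autosomal genes in 4 lists of ILC2 regulators, 30 (23.1%, 95% interval 16.1 to 31.3%) had a broad start domain in offspring of control mothers, beside 5.8% of all genes. Among those with any start domain the share was 26.3% of 114 (18.5 to 35.4%), beside 10.7%. In offspring of asthmatic mothers 6 were broad (4.62%, 1.71 to 9.78%, beside 1.46%), or 7.32% of the 82 with a start domain (2.73 to 15.2%, beside 3.26%). Maf, Pparg, Ptger4 and Nr3c1 were broad in both lists. None of the 4 was broad in both without joining, at 2000 bp or with at least 1200 bp under peaks, and Pparg alone was at a −log10 q of at least 5. Pparg and Nr3c1 were where a domain had to span a coding start, Maf, Pparg and Ptger4 where only the 5′ ends of genes counted as starts, and Maf, Nr3c1 and Ptger4 among the 226 widest domains of each list. Of the other 26 control genes, 20 had a narrower start domain in the asthmatic list and 6 had none, beside 82.0% of all control genes with a start domain, and 93.3% of those with a broad one, that had some asthmatic start domain. Ets1 was among those broad in the asthmatic list alone. Over the 82 regulators with a start domain in both lists, 39 were at least 1.5 times as wide in the control list and 3 in the asthmatic list, beside 50.7% and 1.08% of all genes, and the median ratio of widths was 1.42, beside 1.51 over all 8647 genes. Chromatin regulators and immediate early genes, lists not made for ILC2s and described below, had higher shares than the 130 regulators in both libraries. In the control list 15 of 30 and 13 of 28 were broad, and in the asthmatic list 7 and 2. The immediate early list shares some genes with the regulators. A high share was thus not particular to ILC2 regulators. The lists were written with earlier results of these data known, and a share of genes is not a test.

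**Figure D2:**
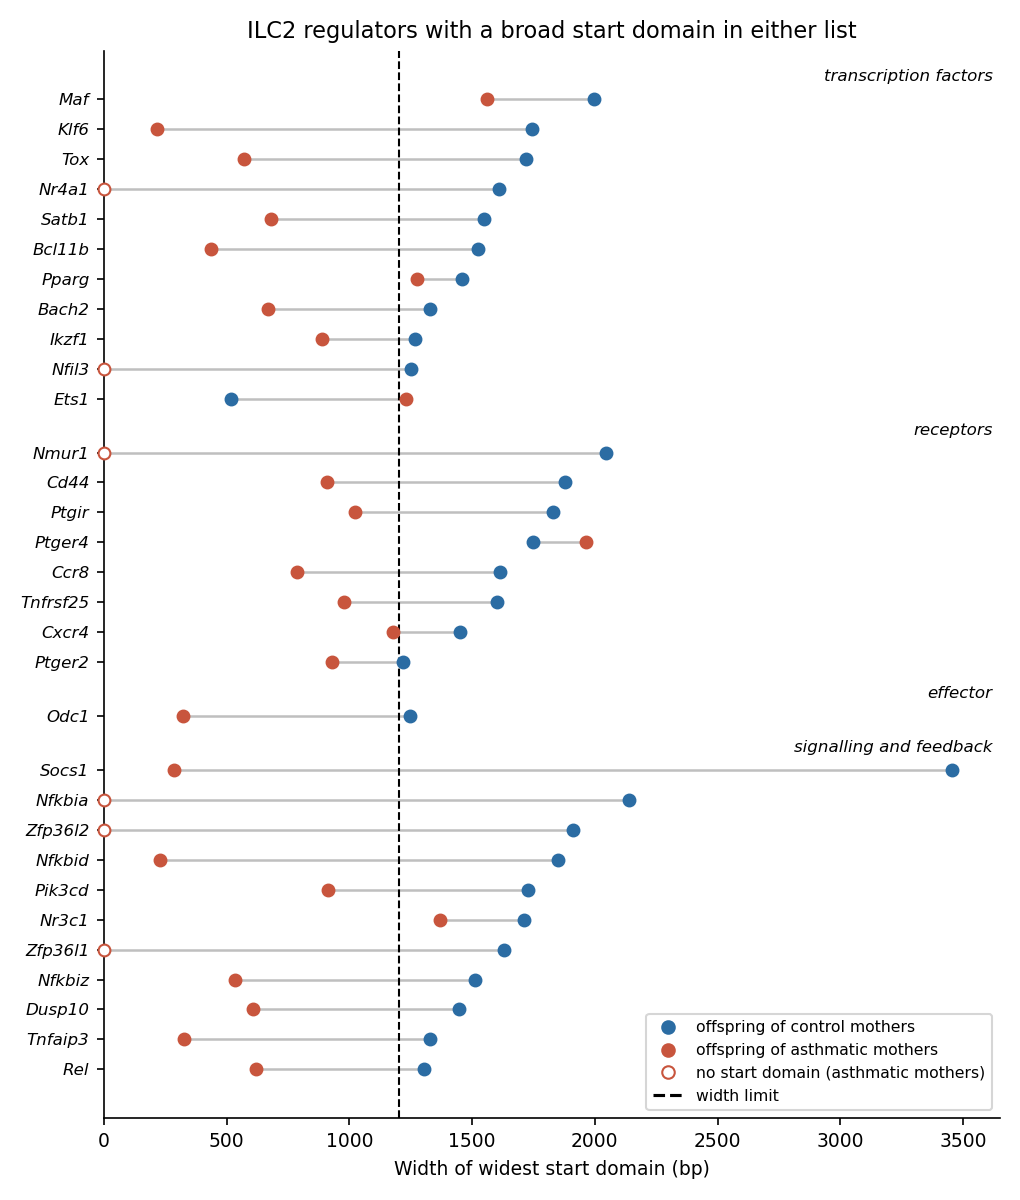
Width of the widest start domain (x axis, bp) of the named ILC2 regulators with a broad start domain in either list, grouped by role, as a blue point for offspring of control mothers and a red point for offspring of asthmatic mothers, open at 0 where no start domain was listed. The red point lies right of the dashed 1200 bp limit for Maf, Pparg, Ptger4, Nr3c1 and Ets1, and the blue point lies right of it for 30 genes.

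Transcription factors held the largest share of broad domains among the 4 lists of regulators. Of 27, 10 were broad in the control list and 3 in the asthmatic list (37.0% and 11.1%, beside 5.8% and 1.46% of all genes). Maf encodes c-MAF, a bZIP factor of type 2 lymphocytes. Its domain was 1997 bp wide in offspring of control mothers, made of peaks of 258 and 1139 bp, and 1560 bp wide in offspring of asthmatic mothers, made of peaks of 340, 156 and 288 bp. Pparg encodes the lipid-sensing nuclear receptor PPARγ, needed for ILC2 function. It had a single peak of 1458 bp in the control list, and peaks of 969 and 230 bp that joined to 1275 bp in the asthmatic list. Both genes were thus over the limit in both libraries, Maf with 784 bp under peaks in the asthmatic library and Pparg with 1199 bp. Bcl11b, which holds ILC2 identity, spanned 1524 bp in the control list and 434 bp in the asthmatic list. Tox, needed early in innate lymphoid development, had 1721 and 572 bp. For Bach2, a repressor that restrains lymphocyte activation, the widths were 1327 and 668 bp, and for Ikzf1, which encodes Ikaros, 1268 and 889 bp.

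Klf6, a zinc finger factor, had 1742 bp in the control list and a single peak of 216 bp in the asthmatic list, a ratio of 8.07. Nfil3, a factor required at the origin of innate lymphoid cells, had 1249 bp in the control list, and no base of that span was under an asthmatic peak. Nr4a1, an orphan nuclear receptor induced by stimulation, had a single control peak of 1610 bp. It had no asthmatic start domain, although asthmatic peaks more than 1000 bp from a coding start covered 25.4% of the control span. Satb1, a chromatin organiser, had 1550 bp in the control list. Its widest asthmatic domain, of 679 bp, was at another start of the gene and did not overlap the control domain, of which asthmatic peaks covered 20.1%. In Ets1, which encodes an ETS factor of early ILC2 development, the order was the other way, with 518 bp in the control list and 1231 bp in the asthmatic list. That asthmatic span was made of peaks of 156 and 272 bp, so 428 of its bases lay under a peak, fewer than the 518 in the control list.

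Receptors and surface molecules were broad in 8 of 39 genes in the control list and in 1 in the asthmatic list. The shares were 20.5% and 2.56%, beside 5.8% and 1.46% of all genes. The prostanoid receptors Ptger2, Ptger4 and Ptgir were among the 8. Ptger4, which encodes the PGE2 receptor EP4, was the receptor that was broad in both, with peaks of 281, 357 and 320 bp over 1749 bp in the control list and of 296, 211 and 231 bp over 1966 bp in the asthmatic list. Peaks covered 958 bp of the first span and 738 bp of the second, so its greater asthmatic width went with fewer bases under peaks. Ptger2, which encodes the other Gs-coupled PGE2 receptor, EP2, had 1 peak in each list, of 1218 and 928 bp. Ptgir, the prostacyclin receptor, had a single peak of 1828 bp in the control list. In the asthmatic list it had peaks of 435 and 213 bp, joined to a span of 1021 bp. Nmur1, the receptor for the neuropeptide neuromedin U and a marker of ILC2s, spanned 2047 bp in the control list from 3 peaks that covered 857 bp, and none of it was under an asthmatic peak. Cd44, an adhesion receptor of activated lymphocytes, had 1878 and 909 bp. Ccr8, a chemokine receptor of type 2 cells, had 1615 and 787 bp. Tnfrsf25, the receptor DR3 for the costimulatory cytokine TL1A, had 1603 and 978 bp, and Cxcr4, the CXCL12 receptor, 1452 and 1179 bp.

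Of 20 genes of cytokines and effectors 10 had any start domain in the control list, and 1, Odc1, was broad there, a share near that of all genes (5.0% beside 5.8%). Its domain had 1246 bp in the control list and 320 bp in the asthmatic list. It encodes ornithine decarboxylase, the first enzyme of polyamine synthesis. No gene of this group was broad in the asthmatic list (0 of 20, upper limit of the interval 16.8%, beside 1.46% of all genes). The widest below the limit in the control list were Tnfsf11, which encodes RANKL, with 1056 and 1104 bp, and Csf2, which encodes GM-CSF, with 1044 and 394 bp. Areg, the growth factor amphiregulin, had 463 and 182 bp.

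Among signalling and feedback genes 11 of 44 were broad in the control list and 2 in the asthmatic list (25.0% and 4.55%, beside 5.8% and 1.46% of all genes). Socs1, which encodes an inhibitor of JAK kinases, spanned 3455 bp in offspring of control mothers, the widest start domain of either list. It was made of peaks of 370, 190, 689 and 386 bp, which covered 47.3% of the span. In offspring of asthmatic mothers it had 1 peak of 287 bp with a −log10 q of 2.89, in a list whose lowest value was 2.01. Nfkbia, which encodes the NF-κB inhibitor IκBα, had 2141 bp in the control list and no asthmatic start domain, with 8.83% of the control span under asthmatic peaks. Nfkbid, of the same IκB family, had 1849 and 229 bp, and Nfkbiz, another member, 1510 and 534 bp. Tnfaip3, which encodes the ubiquitin-editing inhibitor A20, had 1330 and 326 bp, and Rel, the NF-κB subunit c-Rel, 1304 and 618 bp. The other SOCS family genes in the list, Socs2, Socs3 and Cish, were not broad, with 1095, 907 and 888 bp in the control list.

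Of 3 genes of the ZFP36 family of RNA-binding decay factors in the lists, Zfp36l2 with 1912 bp and Zfp36l1 with 1629 bp were broad in the control list, and Zfp36, with 393 bp, was not. Neither of the broad genes had an asthmatic start domain, though asthmatic peaks farther from a start covered 9.31% and 19.8% of their control spans. Pik3cd, which encodes the catalytic PI3K subunit p110δ, had 1728 and 912 bp, and Dusp10, a phosphatase of MAP kinases, 1447 and 609 bp. Nr3c1, which encodes the glucocorticoid receptor, was broad in both lists with 1711 and 1369 bp. Peaks covered 1034 bp of the control span. The asthmatic span was joined from peaks of 163 and 377 bp, so 540 bp of it lay under a peak.

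**Figure D3:**
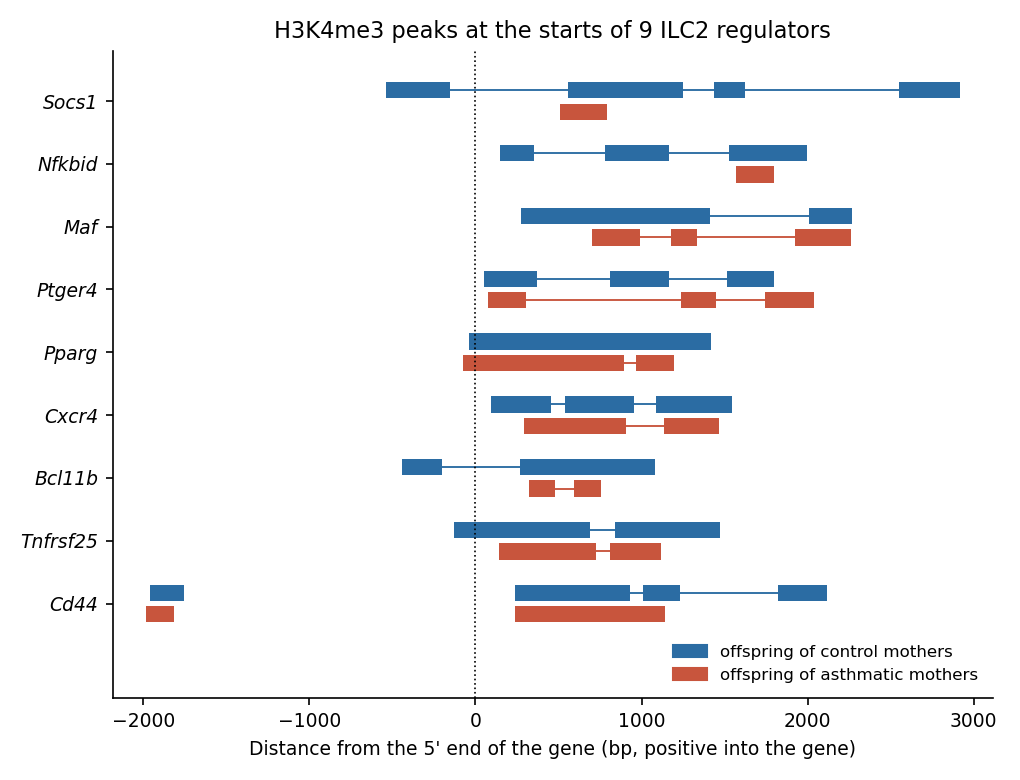
Peaks of both libraries (boxes) at the starts of 9 ILC2 regulators by distance from the 5′ end of the gene (x axis, bp, positive into the gene), with thin lines across gaps of up to 1000 bp that were joined. Socs1 shows 4 control peaks and 1 asthmatic peak, and Pparg is covered almost without a gap in both.

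Most broad domains were joined from several peaks. In the control list 154 of 935 were a single peak, 621 had 2 peaks, 144 had 3 and 16 had 4. Of 226 asthmatic domains 5 were a single peak, 139 had 2, 70 had 3 and 12 had 4. The median share of the span under its own peaks was 79.9% in the control list and 60.5% in the asthmatic list. At least 1200 bp lay under peaks in 414 control domains (44.3%, 41.1 to 47.5%) and 21 asthmatic domains (9.29%, 5.84 to 13.9%). Among the 30 ILC2 regulators broad in the control list 18 reached this, Maf, Pparg, Socs1 and Nfkbia among them, and of the 6 in the asthmatic list none did. Widths were close to the limit in most, under 1500 bp in 62.0% of control and 71.7% of asthmatic domains, and 2000 bp or more in 44 and 4.

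At the limit itself the genes inside and outside were alike in width by construction. In the control list Ell2, Acvr1 with Upp2, and Eed were the nearest inside, at 1200 bp each. Homer1 and Atad2 were among the nearest outside, at 1199 bp each. In the asthmatic list Cct7 with Pradc1, and Erf, both at 1201 bp, and Zc3h4 at 1202 bp were inside, and Arid3a, Plcb4 and Syncrip, at 1199 bp each, were outside.

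The broad domains extended into the gene. Positions were taken from the 5′ end of the gene, over the broad domains at a single gene that lay within 1000 bp of that end, 653 of 735 in the control list and 150 of 168 in the asthmatic list. In the control list the median ends were 345 bp upstream and 1183 bp downstream, and the strongest summit lay a median of 414 bp downstream (middle 50% of domains 198 to 762 bp). It was downstream in 87.6% (84.8 to 90.0%), beside 86.6% of narrower control domains of 2 or more peaks and 93.6% of all narrower control start domains. In the asthmatic list the median ends were 327 bp upstream and 1134.5 bp downstream and the summit was 444.5 bp downstream. Coverage by peaks dipped just upstream of the 5′ end, where nucleosomes are known to be depleted. It was 39.1% at 350 bp upstream, 25.6% at 100 bp upstream and 78.7% at 300 bp downstream in the control list, and 34.0% at 325 bp upstream, 14.7% at 100 bp upstream and 72.0% at 300 bp downstream in the asthmatic list. Start domains of 2 or more peaks that were under 1200 bp wide, taken in the same way, had median ends 311 bp upstream and 638 bp downstream in the control list (n = 895). They had a like dip, 24.1% at 50 bp upstream. The sets were split by width, so the farther end of broad domains follows in part from the rule. Domains joined from 2 or more peaks hold a gap by construction, though its place is not set. Over all narrower control start domains the lowest coverage within 300 bp was 11.5%, at 300 bp upstream, and it was 31.8% at 25 bp upstream and 40.8% at the 5′ end.

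**Figure D4:**
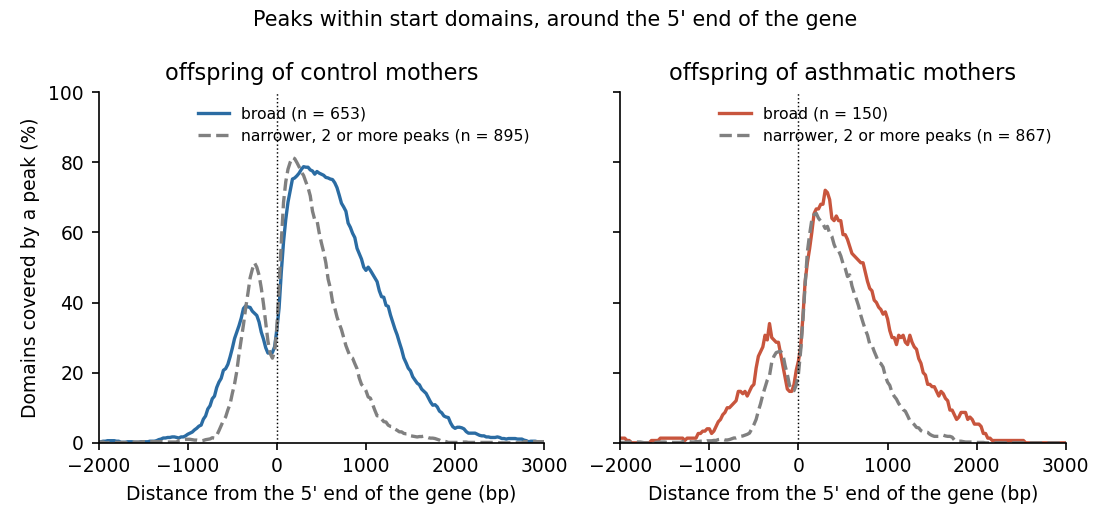
Share of start domains with a peak (y axis, %) by distance from the 5′ end of the gene (x axis, bp, positive into the gene), for broad domains at a single gene and within 1000 bp of its 5′ end (coloured lines, 653 control and 150 asthmatic) and narrower start domains of 2 or more peaks (grey dashed lines). In both libraries the broad curve dips at 100 bp upstream, to 25.6% and 14.7%, peaks 300 bp downstream and reaches farther into the gene than the grey curve. The sets were split by width, so part of this reach follows from the rule.

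Not every broad domain covered a start. A coding start lay inside the span of 810 of 935 control domains (86.6%, 84.3 to 88.7%) and of 188 of 226 asthmatic domains (83.2%, 77.7 to 87.8%), the others lying within 1000 bp of one. Domains shared by genes on both strands made up 189 control domains (20.2%, 17.7 to 22.9%), beside 9.59% of the other start domains, and 52 asthmatic domains (23.0%, 17.7 to 29.1%), beside 10.9%. A wider domain reaches more starts, and how far this sets the difference was not tested.

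Broad domains had lower median strength than start domains of the next widths. The median −log10 q of the strongest peak was 12.9 in broad control domains and 14.7 in control start domains from 600 bp up to the limit, and the median fold over background of that peak was 6.12 and 7.44. In the asthmatic list the same medians were 8.68 and 8.91 for −log10 q and 5.76 and 6.30 for fold. Over all narrower asthmatic start domains the median −log10 q was lower, at 7.81, and in the control list it was 13.7. These values come from the authors' caller and were compared within a list alone. The median GC content was 66.3% in the control list and 68.0% in the asthmatic list, and 88.3% and 89.4% of broad domains met the CpG island measures of at least 50% GC and an observed over expected CpG ratio of at least 0.6, beside 86.2% and 87.2% of other start domains.

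The GATA motif AGATAA, the RUNX motif TGTGGT, the ETS motif CCGGAA, the AP-1 motif TGANTCA and the SP/KLF motif GGGCGG were searched on both strands in the 200 bp at the strongest summit. GGGCGG was held by 53.0% of broad control domains (49.8 to 56.3%), beside 48.7% of all control start domains, and by 60.6% (53.9 to 67.0%) beside 50.6% in the asthmatic list. CCGGAA was held by 9.52% (7.71 to 11.6%) beside 12.6% in the control list and by 8.85% (5.49 to 13.3%) beside 12.6% in the asthmatic list. AGATAA was held by 0.963% of broad and 1.35% of all start domains in the control list and by 1.33% and 1.14% in the asthmatic list. For TGTGGT the shares were 6.52% and 6.44%, then 4.87% and 5.91%, and for TGANTCA 1.28% and 1.27%, then 1.77% and 1.44%. Of the printed stretches Pparg held GGGCGG and the other 4 held none of the 5 motifs.

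Genes broad in both lists numbered 241, or 21.3% of the control genes (18.9 to 23.8%) and 84.6% of the asthmatic genes (79.8 to 88.6%). Of these 207 were wider in the control list and 33 in the asthmatic list, with medians of 1583 and 1385 bp. Of the 1132 control genes 1056 (93.3%, 91.7 to 94.7%) had some start domain in the asthmatic list, beside 82.0% of all control genes with a start domain. Its median width was 860.5 bp, and the median ratio was 1.71, beside 1.51 over all genes with both. Control genes were chosen for their control width and asthmatic genes for their asthmatic width, so each set is tilted toward its own list. The 285 asthmatic genes had a median ratio of 1.07, and 284 had a control start domain, beside 98.8% of all asthmatic genes with a start domain, with a median width of 1520 bp.

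**Figure D5:**
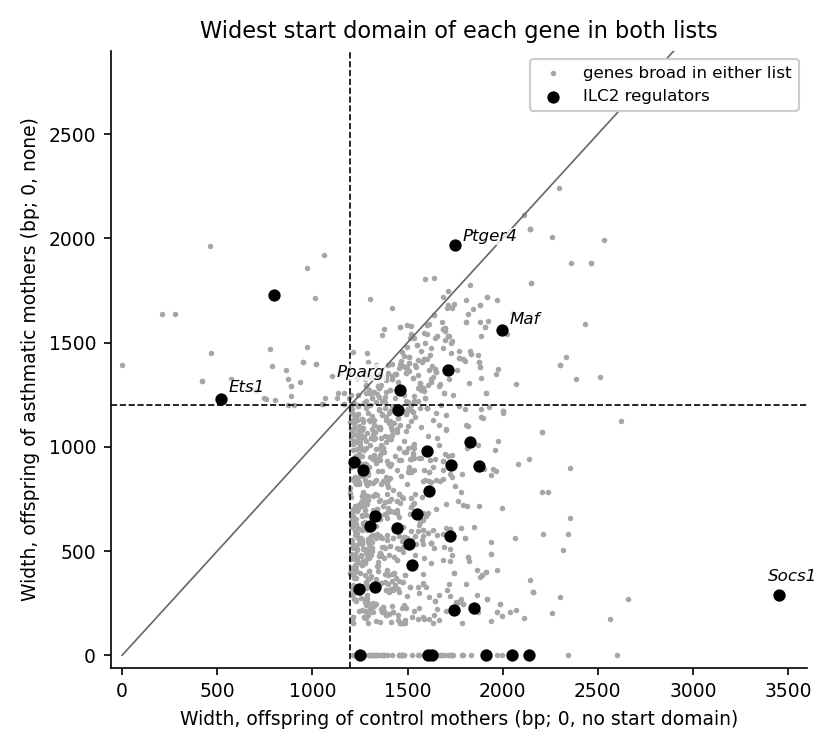
Widest start domain of each of the 1176 genes in the control list (x axis, bp) and the asthmatic list (y axis, bp), 0 where none was listed, with dashed lines at 1200 bp and a line of equal width. The 241 genes at upper right are broad in both, 891 at lower right in the control list alone and 44 at upper left in the asthmatic list alone, and ILC2 regulators (black) lie in all of these fields.

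The widest control domains after Socs1 were at Phf21a (2659 bp), a reader of unmethylated H3K4, Cpeb2 (2624 bp), a translational regulator, Btg1 (2602 bp), an antiproliferative gene of resting lymphocytes, Nrp1 (2563 bp), a coreceptor for semaphorins and VEGF, Bbx (2533 bp), an HMG-box factor, and Kmt2e (2513 bp), an MLL family gene. The shared start of Cbx3 and Hnrnpa2b1 (2465 bp), a known CpG island of divergent housekeeping genes, Atp2b1 (2431 bp), a calcium pump, and Ppp3ca (2384 bp), a calcineurin subunit, completed the 10 widest. The widest asthmatic domain was at Irf2 (2240 bp), an interferon regulatory factor, followed by Ing2 (2111 bp), an H3K4me3 reader, a cluster of the histone genes Hist1h2ai, Hist1h2bl and Hist1h3h (2044 bp), Bcl2 (2006 bp), a survival gene, Bbx (1991 bp) and Ptger4. Tnfsf10 (1963 bp), which encodes TRAIL, H2-Q7 (1922 bp), a class I gene with close paralogs, Tsc22d2 (1882 bp) and the Cbx3 and Hnrnpa2b1 start (1882 bp) came next. Bbx and the Cbx3 and Hnrnpa2b1 start were among the 10 widest in both lists.

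Of the 44 genes broad in the asthmatic list alone, 43 had a control start domain, beside the same 98.8%, and its median width was 890 bp. Their asthmatic spans had a median of 58.9% under peaks, beside 59.4% for genes broad in both, and 2 of 44 had at least 1200 bp under peaks. Among the 10 widest were Tnfsf10 (460 bp in the control list, 1963 bp in the asthmatic list), H2-Q7 (1061 and 1922 bp), Kmt2c (971 and 1860 bp), Gpbp1 (1014 and 1716 bp), Hexdc (279 and 1637 bp) with Ogfod3 (208 and 1637 bp), Pkn2 (971 and 1480 bp), Stambp (779 and 1469 bp), Ddx19a (469 and 1448 bp) and Extl2 with Slc30a7 (952 and 1408 bp). Repeat-masked bases made up 73.8% of the asthmatic domain of Tnfsf10 and 100% of that of Hexdc and Ogfod3, beside a median of 10.1% over the 44 genes.

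Of the 76 control genes with no asthmatic start domain, the widest were Btg1, Bccip (2342 bp), a gene of cell cycle control and DNA repair, Ppp1r9b (2148 bp), which encodes spinophilin, Nfkbia and Nmur1.

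Immediate early genes, which are induced within minutes of stimulation and can also rise when tissue is digested, were broad in 13 of 28 in the control list and 2 of 28 in the asthmatic list, beside 5.8% and 1.46% of all genes. Fosb had 1477 and 1389 bp and Ier5 1280 and 1222 bp, so both were broad in both. Each was a single peak in the control list. Asthmatic peaks covered 587 of the 1389 bp and 1077 of the 1222 bp. Jun (1308 bp), Nr4a3 (1355 bp), Btg1, Nr4a1 and Nfkbia had no asthmatic start domain. Junb had 1355 and 674 bp, Btg2 1615 and 836 bp, Klf4 1700 and 211 bp, and Gadd45b 1245 and 212 bp. The 28 genes include Klf6, Nr4a1, Nfkbia and Tnfaip3, which are counted with the regulators too. Lungs of both groups were digested with enzymes before sorting, and the part of this step in these domains was not tested.

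Chromatin regulators were broad in 15 of 30 genes in the control list and 7 of 30 in the asthmatic list. Kmt2e, with 2513 and 1334 bp, Arid1a, a subunit of the BAF remodeller, with 1592 and 1805 bp, Arid1b, its paralog, with 1501 and 1214 bp, Chd1, an H3K4me3-binding remodeller, with 1616 and 1439 bp, Dnmt3a, a DNA methyltransferase, with 1557 and 1415 bp, and Kdm2b, a CpG island-binding demethylase, with 1396 and 1356 bp were broad in both. In Arid1a the asthmatic peaks covered 1031 bp of the 1805 bp asthmatic span, and control peaks covered 1578 bp of that same span. Kmt2c was broad in the asthmatic list alone. The methyltransferase genes Kmt2a (1280 and 178 bp), Kmt2d (1292 and 864 bp) and Ezh2 (1262 and 533 bp), the acetyltransferase genes Ep300 (1263 and 719 bp), Crebbp (1487 and 171 bp) and Kat6a (1540 and 775 bp), the remodeller gene Chd4 (1447 and 890 bp) and the DNA demethylase genes Tet2 (1319 and 1064 bp) and Tet3 (1258 and 736 bp) were broad in the control list alone.

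Of 22 activation genes, the set with which the study scored fetal lung ILC2s, 5 were broad in the control list (22.7%, beside 5.8% of all genes). In the asthmatic list 0 were broad (upper limit of the interval 15.4%, beside 1.46% of all genes). The 5 genes were Nfkbia, Nfkbiz, Nfkbid, Gadd45b and Lfng, which encodes a Notch-modifying glycosyltransferase and had 2237 and 783 bp. Nfkbia, Nfkbiz and Nfkbid are counted with the regulators too, and Nfkbia and Gadd45b with the immediate early genes. Of the 11 with a start domain in both lists, 8 were at least 1.5 times as wide in the control list, beside 50.7% of all genes, and 0 were at least 1.5 times as wide in the asthmatic list, beside 1.08%.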

How the data were processed

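Peak lists of H3K4me3 CATCH-seq on lung ILC2s were used, 1 for each group of offspring. Reads were trimmed (Trim Galore, cutadapt) and mapped to GRCm38 (Bowtie 2) by the authors, and Sambamba took out PCR duplicates. The peak caller, its threshold and any use of the input library are not given in the sources used here. The study's reporting summary says that no peaks were called on the ChIP-seq, so how the deposited lists were made is unclear, and every width depends on it. Each deposited list gives peak positions, a score, a ratio (fold over the background of the caller) at the summit, a p-value and a q-value (both as −log10), and the authors' summit position. The deposited −log10 q was 2.02 or more in the control list and 2.01 or more in the asthmatic list. The lists are not scaled to each other, so fold and q were compared within a list.

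Peaks, counted from 1, were joined at gaps of at most 1000 bp, and domains were linked to 50464 starts of protein-coding transcripts of GENCODE vM21, each gene taking its widest start domain. Width is the span from first start to last end. Repeat-masked bases (soft-masked), CpGs and sequences came from the RefSeq copy of GRCm38. Joining and linking were tested on simulated peaks. Gene lists cover ILC2 transcription factors, receptors, cytokines and effectors, signalling and feedback, immediate early genes, chromatin regulators, activation genes of the study (from its supplement) and markers of other cells, and Il2rg, Tsc22d3 and Foxp3, on the X chromosome, were left out. Members and lists were chosen with earlier results of these data known. Genes named are ILC2 regulators broad in either list, genes at the 10 widest domains of each list, the 3 domains on either side of the limit, the 10 widest broad in the asthmatic list alone, the 5 widest control genes without an asthmatic start domain, and broad members of the other lists. A few of the genes so chosen are counted but not reported by name here. Other genes of the lists, such as Gata3, were named after their values were seen. Sequence windows were fixed as 200 bp at the control summit and then moved off annotated untranslated bases. With 1 library per group no test was made. Shares have exact Clopper-Pearson 95% intervals. Tools were pandas 2.3.3, scipy 1.17.1, numpy 2.4.6 and matplotlib 3.10.9 under Python 3.11.15.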

Additional observations from a re-analysis of the deposited data

How the results depend on the processing

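Under 12 alternatives 39 of 72 recomputed values stayed near the reported one, counts within 1.5 times and shares within their interval, and 33 moved. The control list held more broad genes than the asthmatic list under 11, and the 12th fixed the number of domains. Values are given as control genes, asthmatic genes, share of control genes also broad in the asthmatic list, share of asthmatic genes also broad in the control list, and control and asthmatic ILC2 regulators, beside the reported 1132, 285, 21.3%, 84.6%, 30 and 6. Single peaks without joining gave 182, 5, 0.549%, 20.0%, 6 and 0. At least 1200 bp under peaks gave 475, 21, 4.00%, 90.5%, 18 and 0. A limit of 2000 bp gave 54, 6, 11.1%, 100%, 3 and 0, and of 1000 bp 2250, 633, 24.2%, 86.1%, 44 and 13. Peaks of −log10 q of at least 5 gave 985, 175, 14.8%, 83.4%, 25 and 2, and joining up to 3000 bp 1393, 467, 26.3%, 78.4%, 33 and 7. The 226 widest start domains of each list gave 279 and 285 genes, 102 of them in both (36.6% and 35.8%), with 14 and 6 regulators. Domains that span a coding start, an alternative chosen after seeing the data, left 3 asthmatic regulators in place of 6 and moved none of the other results past these limits. A distance of 500 bp, the 5′ end of the gene alone, only symbols of Gm and a digit left out, and domains under 50% repeat-masked (added after seeing the data) moved none.

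Both counts rest on joining, the asthmatic one most of all. Without it 182 control genes and 5 asthmatic genes were broad, in place of 1132 and 285. No paired analysis was possible because each group had a single library. The depth of each library is unknown, and a start domain missing from a list was not detected at that threshold rather than absent.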

Other observations

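Most wide domains away from coding starts lay in repeats. Of 1212 control domains of at least 1200 bp at no annotated transcript start, 1176 (97.0%) were at least 50% repeat-masked, and of 1644 in the asthmatic list 1615 (98.2%). Among broad domains at coding starts these were 4 of 935 (0.428%) and 7 of 226 (3.10%). The median GC content was 44.5% and 46.4% in the wide domains at no annotated start, beside 66.3% and 68.0% at coding starts. A peak of the other list overlapped 97.1% of these control domains and 89.7% of these asthmatic domains. So the asthmatic list held more wide domains than the control list away from starts and fewer at coding starts.

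Histone genes, which lie in clusters on chromosomes 13 and 3 and have close paralogs, were often broad. Of 67 genes with symbols starting with Hist, 19 (28.4%, 18.02 to 40.7%) were broad in the control list, beside 5.8% of all genes, and they lay in 8 domains. In the asthmatic list 11 (16.4%, 8.49 to 27.5%) were broad, beside 1.46%, in 5 domains. Hist1h3b and Hist1h2ab shared a domain of 1416 bp in the control list and 1338 bp in the asthmatic list, and Hist2h3c1 and Hist2h2aa1 one of 1714 and 1531 bp. Hist1h3d, Hist1h2ad and Hist1h2bf shared 2159 bp in the control list and 306 bp in the asthmatic list. Reads of near-identical copies may be placed at either copy, and the part of this in these widths was not tested. These genes were chosen after their values were seen.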
